A study of Mus musculus with 3 samples.

Results

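The genes of Polycomb repressive complexes 1 and 2 (PRC1 and PRC2) were examined in DP thymocytes, developing T cells that have both the CD4 and the CD8 coreceptor on their surface. The members are 33 named subunits and cofactors, of which 32 had a probe set assigned to that gene symbol alone, out of 19938 genes with such a probe set on the array. Where a gene had several, the probe set with the highest mean stood for it. The exception was Cbx6, whose probe set is shared with other genes and was not used for the results.

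All material came from wild-type (WT) C57BL/6 mice aged 5 to 6 weeks. Cohorts of littermates served as biological replicates, so each of the 3 samples is a pool of thymuses and stands for 1 array, called here arrays 1, 2 and 3. DP cells were taken by magnetic beads, for CD8 and then for CD4. The wider project mapped transcription factors, among them Ets1, Runx1 and E47, and histone marks, H3K27me3 included, in thymocytes; those maps were not used here. The labels name no treatment, no mutant and no second cell type, so the arrays show which Polycomb genes DP cells express and how far their values differ between cohorts. In such bulk samples, fewer cells of a type and less RNA per cell cannot be told apart.

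PRC2 methylates lysine 27 of histone H3 (H3K27), and PRC1 ubiquitinates histone H2A. Both marks are known for keeping developmental regulators silent once a cell has taken another fate. EZH2 or its paralogue EZH1 is the methyltransferase of PRC2, and EED and SUZ12 are needed for its activity. PRC1 is built around RING1 or RNF2 paired with 1 PCGF protein. Canonical PRC1 adds a CBX protein, which reads H3K27 trimethylation, and a PHC protein, whereas variant PRC1 carries RYBP or YAF2 in place of CBX. Loss of PRC2 or of Bmi1 is known to impair the development of thymocytes.

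Each probe set has a deposited log2 value on every array, and means are given ± SD with n = 3. The limit for calling a probe set above background was the 95th percentile of 99 measured genes typical of organs other than thymus, with 7.24, 7.22 and 7.22 for arrays 1, 2 and 3. Signal also depends on the affinity of the probes, so single genes were not ordered by level. Differences between arrays for the same probe set do not carry that limit. Of 8 measured DP stage genes all lay above background on every array, among them Cd4, Cd8a, Cd8b1 and Rag1, and so did 5 of 22 measured markers of other cell types that the sort could hold (Cd79b, Cd74, H2-Ab1, Col1a1 and Pecam1). The 3 profiles correlated with Pearson's r of 0.993 to 0.996 across probe sets, which are not independent replicates. Array 1 stood apart: the noncoding RNA Xist, which acts in X inactivation, had 11.65, 5.40 and 5.68 on arrays 1, 2 and 3, and the Y-linked Eif2s3y and Kdm5d had 4.21, 10.29 and 10.08, and 4.46, 9.10 and 8.97. Immediate-early genes, which are transcribed within minutes of a stimulus, had a median of 9.57, 8.12 and 8.30. The part of these differences in values of Polycomb genes that are high or low on array 1, among them Ezh1, the PCGF genes, Rybp, Kdm2b and Kdm6b, was not tested.

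Nearly the whole Polycomb machinery was detected. Of the 32 measured members, 31 lay above background on all 3 arrays (96.9%), against 43.2% of all genes. Pcgf2 was the exception. The median level of the members was 8.99 on the log2 scale, with 8.90, 9.04 and 8.97 on arrays 1, 2 and 3. The median of all genes was 6.85, and that of the 8606 genes above background on every array was 9.02. The 11 PRC2 members had a median of 9.84 and the 21 measured PRC1 members one of 8.78. These medians carry the affinity of their probes and were not tested against each other. With the 99th percentile of the organ genes as the limit, which was 7.69, 7.51 and 7.50, the count was also 31.

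**Figure D1:**
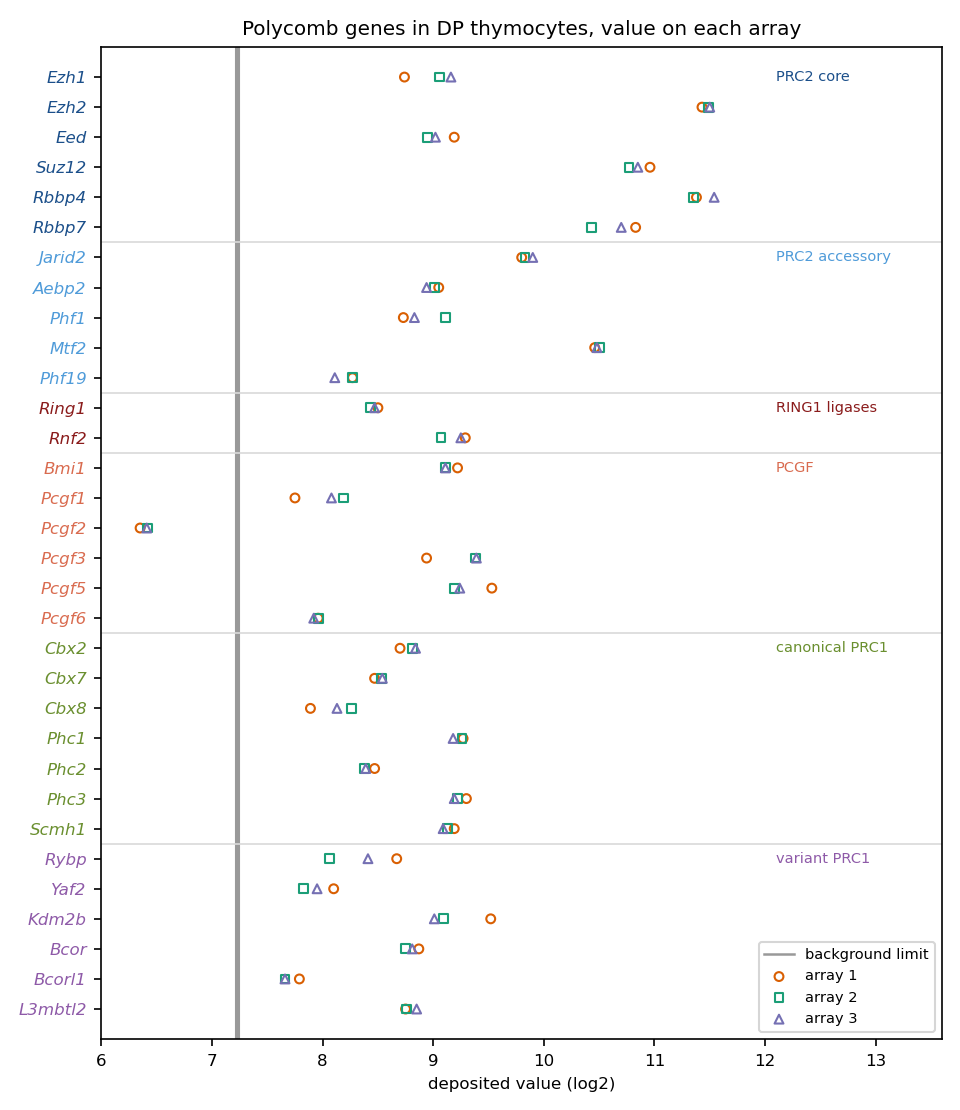
Deposited log2 value (horizontal axis) of each of the 32 measured Polycomb genes on array 1 (circles), array 2 (squares) and array 3 (triangles), grouped by role, with the background limit as a grey line. Only Pcgf2, with 6.35, 6.42 and 6.41, lies left of the limit.

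Both catalytic subunits of PRC2 were present. Ezh2, the main H3K27 methyltransferase of dividing cells, had 11.43, 11.49 and 11.50 on arrays 1, 2 and 3. Ezh1, the paralogue known for its role in cells that divide little, had 8.74, 9.06 and 9.16. Ezh2 was thus nearly level over the cohorts, whereas Ezh1 was lower on array 1 than on the other arrays, 1.34-fold below array 3. The difference Ezh2 minus Ezh1 was 2.69, 2.43 and 2.34. Its size carries the affinity of the probes. A constant affinity cancels in its range of 0.35, which still rests on 1 probe set per gene.

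The other core subunits were also detected on every array. Suz12 had 10.96, 10.77 and 10.85 on arrays 1, 2 and 3. Eed, which binds H3K27 trimethylation and stimulates the enzyme, had 9.19, 8.95 and 9.02 by its brighter probe set. Both genes were highest on array 1, as were 38.7% of genes above background, and lowest on array 2, as were 28.4%. A further Eed probe set had 5.24, 4.97 and 5.46, below background throughout, so detection of Eed rests on the brighter one. Of the histone chaperones, which PRC2 shares with other chromatin complexes, Rbbp4 had 11.38, 11.35 and 11.54. The X-linked Rbbp7 had 10.83, 10.43 and 10.70, and its further probe set had 10.70, 10.42 and 10.50, with the same arrays highest and lowest. Probe sequences were not used here, so signal from near-identical copies of these genes elsewhere in the genome was not tested.

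The accessory subunits that define forms of PRC2 were all above background. Mtf2, Phf1 and Phf19 are the Polycomb-like proteins of PRC2.1. Mtf2 had 10.46, 10.50 and 10.48, a range of 0.04. Phf19 had 8.27, 8.27 and 8.11, and Phf1 had 8.73, 9.11 and 8.83. Phf1 was highest on array 2, 1.30-fold above array 1. Mtf2 had the same order of arrays within its much smaller range, and Phf19 was lowest on array 3. The PRC2.2 subunits had ranges of 0.10 and 0.11. Jarid2, which recruits PRC2 and is itself methylated by it, had 9.80, 9.83 and 9.90, and Aebp2 had 9.05, 9.01 and 8.94.

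Sequences upstream of 5 members are shown because they set paralogues side by side, with Suz12 as the subunit that both EZH proteins need. They are the 250 bases before the RefSeq start of the gene in GRCm38.p6, on the gene's strand. Capitals mark matches, on either strand, to short motifs of the factors that the project mapped or that drive the cell cycle: CCGGAAG for ETS, TGTGGT for RUNX, CAGCTG or CAGGTG for E proteins (E-box), and GCGGGAA or GCGCGAA for E2F. No motif contains another.
Ezh2, chr6:47595031-47595280, minus strand: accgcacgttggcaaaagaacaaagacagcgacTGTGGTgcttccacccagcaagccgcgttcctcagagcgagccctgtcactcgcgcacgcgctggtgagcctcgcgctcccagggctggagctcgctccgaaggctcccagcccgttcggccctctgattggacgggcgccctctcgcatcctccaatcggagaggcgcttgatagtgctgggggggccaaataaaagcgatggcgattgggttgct
Ezh1, chr11:101226464-101226713, minus strand: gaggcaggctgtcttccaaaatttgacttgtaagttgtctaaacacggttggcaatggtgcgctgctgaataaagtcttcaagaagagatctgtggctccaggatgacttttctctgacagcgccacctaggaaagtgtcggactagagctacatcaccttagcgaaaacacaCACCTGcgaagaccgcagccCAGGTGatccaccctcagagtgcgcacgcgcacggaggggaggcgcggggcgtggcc
Suz12, chr11:79992856-79993105, plus strand: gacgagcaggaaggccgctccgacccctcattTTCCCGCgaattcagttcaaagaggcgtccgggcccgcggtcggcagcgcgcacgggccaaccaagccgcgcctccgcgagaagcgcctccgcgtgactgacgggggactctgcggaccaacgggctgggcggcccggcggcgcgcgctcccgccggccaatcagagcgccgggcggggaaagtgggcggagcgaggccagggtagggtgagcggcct
Bmi1, chr2:18676768-18677017, plus strand: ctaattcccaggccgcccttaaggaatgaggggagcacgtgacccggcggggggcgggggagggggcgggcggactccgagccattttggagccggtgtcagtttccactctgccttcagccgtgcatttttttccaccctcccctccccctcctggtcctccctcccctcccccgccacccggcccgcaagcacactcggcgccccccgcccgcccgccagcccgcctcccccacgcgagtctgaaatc
Pcgf2, chr11:97699649-97699898, minus strand: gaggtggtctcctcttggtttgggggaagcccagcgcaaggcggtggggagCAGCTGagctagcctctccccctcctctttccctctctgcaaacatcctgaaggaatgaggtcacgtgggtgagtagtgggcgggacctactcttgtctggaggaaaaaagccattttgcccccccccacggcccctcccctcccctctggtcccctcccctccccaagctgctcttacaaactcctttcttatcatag
The Ezh2 window holds a RUNX match 217 to 212 bases before the start. The Ezh1 window holds a pair of E-box matches in opposite orientation, from 77 to 72 and from 57 to 52 bases before the start. The Suz12 window holds an E2F match from 218 to 212, and the Pcgf2 window an E-box match from 199 to 194. The Bmi1 window holds none of these letters. The windows hold 23 CpG dinucleotides for Ezh2, 14 for Ezh1, 37 for Suz12, 21 for Bmi1 and 5 for Pcgf2. The Pcgf2 window is thus the poorest of these in CpG.

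Among all 42 such windows of the 29 members with an entry, the median number of CpG dinucleotides was 20, against 6 over all 32851 windows and 17 over the 8853 windows of genes above background on every array. The E2F letters stood in 6 of the 42 windows (14.3%), against 5.0% of all windows and 10.0% of those of expressed genes. RUNX letters stood in 7 windows (16.7%), against 14.0% and 10.6%, and E-box letters in 9 windows (21.4%), against 27.7% and 24.2%. ETS letters stood in 1 window (2.38%), that of a Phc2 start, against 6.91% and 15.7%. Some windows of a gene overlap, so they are not independent. A match describes the letters and shows no binding.

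The E3 ligases at the heart of PRC1 were both detected. Rnf2, also called RING1B, had 9.29, 9.07 and 9.25 on arrays 1, 2 and 3. Ring1 had 8.50, 8.43 and 8.47. Both were highest on array 1 and lowest on array 2, with small ranges of 0.22 for Rnf2 and 0.07 for Ring1. Among genes above background, 38.7% were highest on array 1 and 28.4% lowest on array 2.

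The PCGF family, whose members decide which form of PRC1 assembles, contained both the undetected gene and the widest differences between paralogues. Bmi1 (PCGF4) and Pcgf2 (also called MEL18) are the alternative PCGF subunits of canonical PRC1. Bmi1 had 9.22, 9.11 and 9.11 and lay above background on every array, whereas Pcgf2 had 6.35, 6.42 and 6.41 and lay below it on every array. A value below the limit is a bound for that probe set, not an absence of transcript.

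The PCGF subunits of variant PRC1 were all detected and differed in their pattern over arrays. Pcgf5 had 9.53, 9.19 and 9.24 on arrays 1, 2 and 3. Pcgf3, its closest relative, had 8.94, 9.38 and 9.39. Pcgf5 was thus 1.27-fold higher on array 1 than on array 2, and Pcgf3 was 1.36-fold lower. Pcgf1, the subunit of the complex with KDM2B and BCOR, had 7.75, 8.19 and 8.08 and was likewise lowest on array 1. Pcgf6, the subunit of the complex with L3MBTL2, MGA and E2F6, had 7.96, 7.96 and 7.92, with a range of 0.04.

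Differences between paralogues were compared over arrays by each gene's brightest probe set, because a constant probe affinity cancels in how such differences vary. Over 24 pairs of detected paralogues in 9 families, the range of the difference over the arrays ran from 0.04 for Phc2 and Phc3 to 0.78. By these probe sets 6 pairs exceeded 0.4, and all were among the 10 PCGF pairs. Each of the 6 holds Pcgf1 or Pcgf3, whose own ranges were 0.44 and 0.45, so these pairs are not independent. The share over other pairs of genes was not counted. Further probe sets of Phc3 (8.81, 8.26 and 8.39) and Rybp (7.76, 7.89 and 7.57) had other patterns over arrays. The ranges of pairs with these genes, the count of 6 and its limit to PCGF pairs thus depend on the probe set used. Pcgf3 minus Pcgf5 was -0.59, 0.19 and 0.15 on arrays 1, 2 and 3, a range of 0.78. Pcgf1 minus Pcgf5 had the same range, whereas Pcgf1 minus Pcgf3 had one of 0.12. Arrays 2 and 3 were close and array 1 differed from both, so the spread rests on array 1. No test was made on these differences, and the PCGF family gave more pairs than any other.

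The 7 measured subunits specific to canonical PRC1 were detected throughout. By the brightest probe sets, their ranges over arrays ran from 0.07 for Cbx7 to 0.37 for Cbx8. Of the CBX proteins, Cbx2 had 8.70, 8.81 and 8.84 and Cbx7 had 8.47, 8.53 and 8.54 on arrays 1, 2 and 3. Cbx8 had 7.89, 8.26 and 8.13, and all 3 CBX genes were lowest on array 1, as were 39.3% of all genes and 40.7% of those above background. The polyhomeotic genes, whose SAM domains link PRC1 complexes into larger assemblies, had ranges of 0.09 to 0.11 by their brightest probe sets. Phc1 had 9.27, 9.26 and 9.18, Phc2 had 8.47, 8.38 and 8.39, and Phc3 had 9.30, 9.22 and 9.19. A further Phc3 probe set was less steady, with 8.81, 8.26 and 8.39. Scmh1, a homologue of the fly Sex comb on midleg protein, had 9.19, 9.13 and 9.09.

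Subunits of variant PRC1 included the members with the widest spread. Rybp, which takes the place of CBX proteins and reads ubiquitinated H2A, had 8.67, 8.06 and 8.41 on arrays 1, 2 and 3. Kdm2b, whose CXXC domain brings PRC1 to unmethylated CpG islands, had 9.52, 9.09 and 9.01. Rybp was 1.53-fold higher on array 1 than on array 2, and Kdm2b on array 1 was 1.42-fold over array 3. A further Rybp probe set had 7.76, 7.89 and 7.57, highest on array 2, so the pattern of Rybp was not shared by its probe sets. Yaf2, the paralogue of Rybp, had 8.10, 7.83 and 7.95. The corepressors Bcor and Bcorl1, both X-linked, had 8.87, 8.75 and 8.81, and 7.79, 7.66 and 7.66. L3mbtl2 had 8.75, 8.76 and 8.85. Of these 6 genes, 5 were highest on array 1, with L3mbtl2 as the exception, against 34.5% of all genes and 38.7% of those above background. For Rybp this holds for the brighter probe set only.

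**Figure D2:**
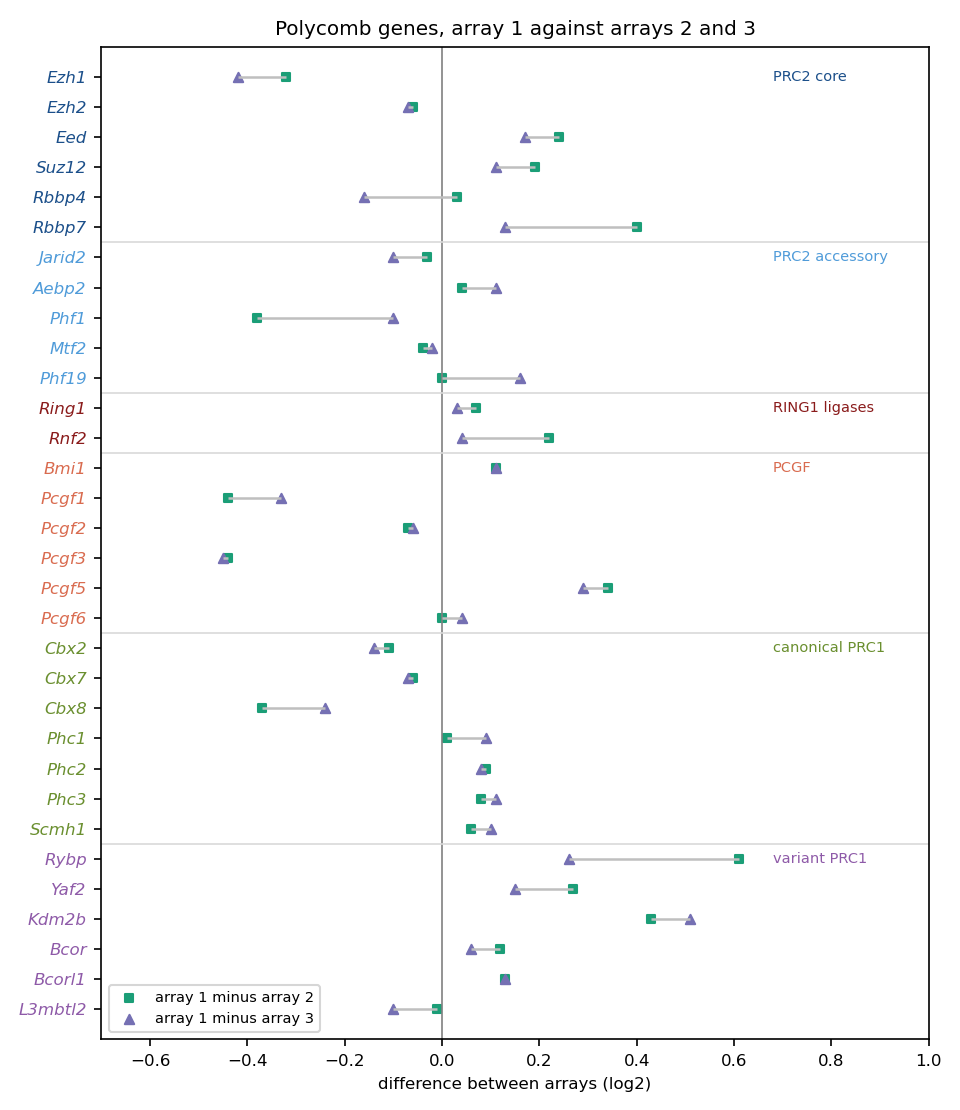
Difference in log2 value between array 1 and array 2 (squares) and between array 1 and array 3 (triangles) for each of the 32 measured Polycomb genes, grouped by role. Rybp and Kdm2b lie farthest to the right, at up to 0.61 and 0.51, and Pcgf3, Pcgf1 and Ezh1 farthest to the left, at -0.45, -0.44 and -0.42.

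Seen over all members, the cohorts differed by small amounts. The variance of each probe set over the 3 arrays was set against probe sets of the same level (limma, 1-sided F test, Benjamini-Hochberg adjustment over 28939 probe sets). No member passed an adjusted p of 0.05, and the lowest adjusted p was 0.988. The test also missed wider spreads than the members' largest SD of 0.31. Jun, with 11.01, 9.65 and 9.56 and an SD of 0.81, did not pass (limma, adjusted p = 0.416). The test thus cannot tell whether the members were steady. Of all probe sets tested, 6 passed (0.0207%). That count was 18 without array 1 and 0 without array 2 or array 3, while no member passed in any of these. Before adjustment 2 members, Rybp and Kdm2b, were under 0.05 in that limma test, which is 6.25% of the members against 4.66% of all probe sets. That share is near the background. The median SD was 0.074 for the members and 0.095 for all genes above background.

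Of the 31 detected members, 19 had a range over arrays of at most 0.2 log2 units (61.3%), against 58.5% of expressed genes. A range above 0.4 was found for 5 members (16.1%), namely Ezh1, Pcgf1, Pcgf3, Rybp and Kdm2b, against 9.11% of expressed genes. Of these, Rybp and Kdm2b were highest on array 1, and Ezh1, Pcgf1 and Pcgf3 lowest there. The wide members thus did not move one way.

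**Figure D3:**
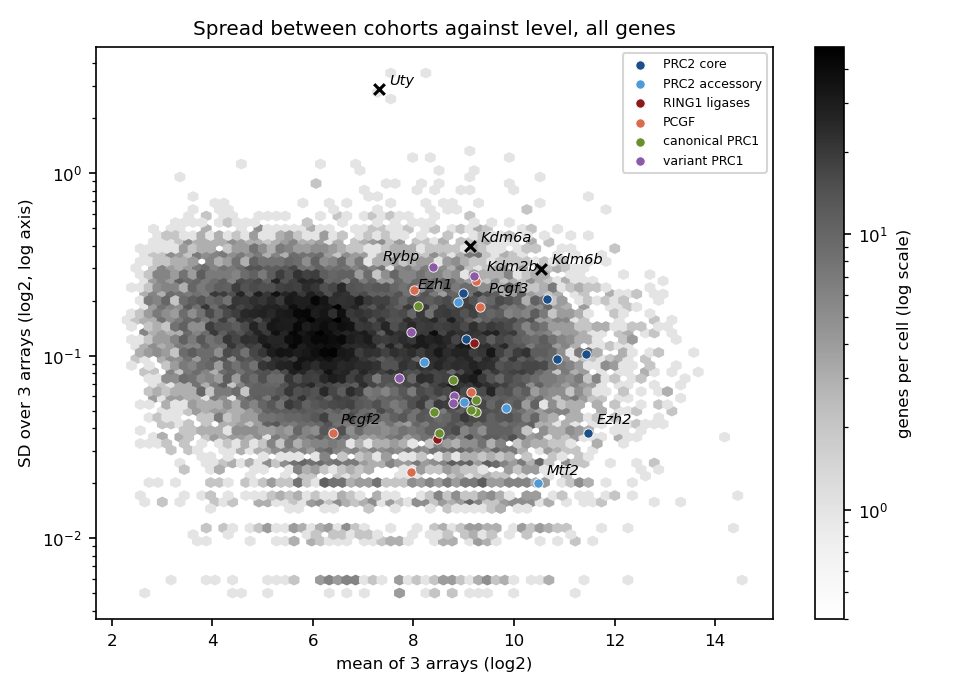
SD over the 3 arrays (vertical, log axis) against the mean log2 value (horizontal) for all 19938 genes as grey cells, with the 32 Polycomb genes as coloured points by role and Kdm6a, Kdm6b and Uty as crosses. The members lie within the cloud of all genes, with Rybp highest at an SD of 0.31, while Uty stands above it at 2.87.

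Across roles, 17 of the 32 members were highest on array 1 (53.1%), against 34.5% of all genes and 38.7% of expressed genes. Lowest on array 1 were 12 members (37.5%), against 39.3% and 40.7%. Highest on array 2 were 5 members (15.6%), against 33.0% and 29.7%, and on array 3 there were 8 of 32, against 29.0% and 27.5%. Lowest on array 2 were 11 (34.4%), against 27.8% and 28.4%, and on array 3 there were 7 (21.9%), against 29.4% and 26.8%. Members with tied values made up the rest. Highest on array 1 were 13 of 21 PRC1 members and 4 of 11 PRC2 members. The deviations behind these counts were small: the members' median deviation from the 3-array mean was 0.04, -0.01 and 0.00 on arrays 1, 2 and 3, and that of all genes was -0.01, 0.01 and 0.00. The array with the highest value stayed the same under quantile normalization for 28 of the 30 members without a tie, Ezh2 and Phc1 being the others. It stayed the same for all 30 under median centring. Other lists also differed between arrays, but not all the same way. Of the 8 DP stage genes, 7 were lowest on array 1, and the list's median deviation was -0.15, 0.09 and 0.07 on arrays 1, 2 and 3. The 4 thymic epithelium markers were all lowest on array 1 too, though none lay above background on every array. The summed level of the 10 immediate-early genes was 13.88, 12.35 and 12.46 (log2 of the sum) on arrays 1, 2 and 3. That of the 6 myeloid and dendritic markers was 10.49, 9.50 and 9.94, although Csf1r, Itgam, Itgax and Lyz2 lay below background on every array. Of the other myeloid and dendritic markers, Cd74 had 8.83, 7.27 and 8.05 and H2-Ab1 had 9.26, 7.91 and 8.50, highest on array 1 and lowest on array 2. Eed, Suz12, Rbbp7, Ring1, Rnf2, Pcgf5, Phc2, Rybp, Yaf2 and Bcor had that order too, Rybp by its brighter probe set only. Their ranges over arrays ran from 0.07 for Ring1 to 0.61 for Rybp. Of the cycling genes, Mcm5, Pcna, Aurkb, Bub1, Tyms and Rrm2 also had that order, and the others did not. The share of all genes with that order was not counted, so these names are a description only. The 22 markers of other cell types summed to 11.86, 11.58 and 11.77, and the 12 cycling genes, all above background, to 14.59, 14.47 and 14.53. The part of these lists in the values of Polycomb genes was not tested.

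The family of enzymes that undo the PRC2 mark held the one gene of the pathway lists that passed the variance test, a call that depended on the settings of that test. Kdm6a and Kdm6b demethylate H3K27, and Uty is the Y-linked relative of the X-linked Kdm6a. Uty had 4.00, 8.96 and 8.98 on arrays 1, 2 and 3 and passed the variance test (limma, adjusted p = 0.019). The call held under quantile normalization and median centring and was lost under the other 8 alternatives, with adjusted p from 0.0537 to 0.994 in limma. With array 1 set at the background limit, it was at least 3.29-fold lower there than on array 2. Against array 3 it was at least 3.34-fold lower. Kdm6a had 9.59, 8.86 and 8.95, so array 1 exceeded array 2 by 1.66-fold. It did not pass after adjustment (limma, adjusted p = 0.988). Uty and Kdm6a were thus high on opposite arrays. Xist, like Kdm6a, was highest on array 1, at least 21.5 times its level on array 3. The labels give no sex for the cohorts, and sex and other differences between cohorts cannot be told apart.

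Kdm6a stood out among X-linked genes, and the X-linked members did so less. Array 1 minus the mean of arrays 2 and 3 was 0.69 for Kdm6a, second of 248 expressed X-linked genes after Tceal9, a gene named after its values were seen. The difference was 0.27 for Rbbp7, 0.13 for Bcorl1 and 0.09 for Bcor, against a median of -0.01 over the 248. All 3 members were highest on array 1, as were 38.3% of expressed X-linked genes. Kdm6b, which is autosomal and inducible, had 10.88, 10.40 and 10.33, also highest on array 1 (limma, adjusted p = 0.988).

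Other genes of the pathway were also mostly detected. Of 27 measured among 30 listed, 23 lay above background on all arrays, against 43.2% of all genes. The deubiquitinase module that removes the PRC1 mark was present, with Bap1, its catalytic subunit, at 10.03 ± 0.11. The partners of the PCGF6 complex were present too, with E2f6 at 7.94 ± 0.07, Mga at 9.81 ± 0.07, Max at 10.07 ± 0.11 and Tfdp1 at 10.49 ± 0.03. Epop and Lcor, listed with other Polycomb group genes, had 7.75, 7.68 and 7.65, and 9.29, 9.33 and 9.49. Sfmbt1 had 8.59, 8.42 and 8.26. Auts2, a partner of PCGF3 and PCGF5 complexes known for its role in neurons, had 6.28, 6.38 and 6.10, below background on every array. Sfmbt2 and Scml2 were below it as well, at 7.11 ± 0.02 and 5.42 ± 0.16. Uty, above it on 2 arrays, made up the 4 that did not count. The single gene of these 27 that passed the variance test was Uty, and the 3 under 0.05 before adjustment were Uty, Kdm6a and Kdm6b.

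Genes that Polycomb complexes are known to silence in many cell types were at background. Of 46 measured among 50 listed developmental regulators, 1 was detected on all arrays and 45 were on none. Above background on all arrays were 43.2% of all genes, but only 4 of the 99 organ genes that set the limit. Their median level was 6.14, with 6.04, 6.24 and 6.15 on arrays 1, 2 and 3, against 5.79 for the organ genes. Hoxa5 had 5.94 ± 0.06, Hoxa7 6.68 ± 0.07, Hoxa9 6.21 ± 0.29 and Hoxa10 6.16 ± 0.09. The exception was Wnt6, with 7.47, 7.48 and 7.50, 0.23 log2 units over the limit of array 1 and below the 99th percentile there. With the latter limit the count was 0. With the median of the organ genes plus 1 log2 unit it was 6. No target reached an unadjusted p of 0.05 in the limma variance test. Expression arrays do not measure the mark at these genes.

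**Figure D4:**
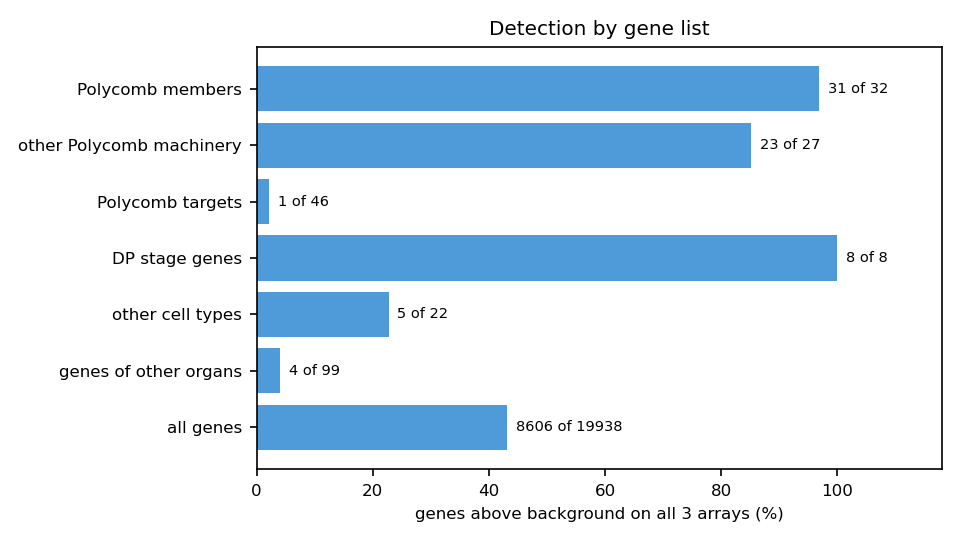
Share of measured genes above background on all 3 arrays (horizontal axis, percent) for each gene list, with the counts beside the bars. Polycomb members reach 31 of 32 and their listed targets 1 of 46, while all genes reach 8606 of 19938 and genes of other organs 4 of 99.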

How the data were processed

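The file the authors deposited gives each probe set a log2 value per array, from 1.60 to 14.94, a unit read from the values. The package affy is named in the submitters' processing notes; settings and genome build: not given in the sources used here. Per the labels' protocols, RNA was extracted with TRIzol, and the same text describes formaldehyde fixation before the sort without saying whether the RNA samples were fixed. Nothing was renormalized. The number of arrays limits the precision.

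Gene names came from the platform annotation: 21789 of 35556 probe sets have 1 symbol, 1621 several and 12146 none. All 32 member symbols matched the RefSeq table (GRCm38.p6) by gene ID. The 6617 probe sets numbered below the lowest named one were left out as controls. The background limit rests on 99 of 108 listed genes of other organs, of which 4 lay above it on all arrays, namely Acta1, Mylpf, Tnni2 and Tnnt3. Variances were tested with limma 3.58.1 in R 4.3.3 (robust, mean-dependent prior), a procedure tested on simulated data. The F test used the prior's degrees of freedom before limma lowers them for outlying probe sets, because the lowered ones found none of the simulated shifts. With the lowered ones, an alternative chosen after seeing the data, no probe set passed and 1344 were under 0.05 before adjustment. Counts and medians were made with pandas 2.3.3 and numpy 2.4.6 (Python 3.11.15). Promoters came from the RefSeq table, which held 29 of the 33 members.

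The members and lists were chosen with earlier results of these data known. Names were drawn from all members, the first 4 measured genes of each list, genes on the minority side of the limit where 5 or fewer, Kdm6a and Uty, and genes past the variance test. A further item of the rule is not reported here. The marker lists for B cells, thymic epithelium, red cells, NK cells and stroma had 1 of 4, 0 of 4, 0 of 2, 0 of 3 and 2 of 3 measured genes above background on all arrays, and myeloid and dendritic markers 2 of 6. Alternatives were other limits, the mean of a gene's probe sets, quantile normalization, median centring, other variance priors and probe sets tested, and leaving out each array.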

Additional observations from a re-analysis of the deposited data

How the results depend on the processing

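The count of detected members was 31 under the other limits, quantile normalization and without any 1 array, and 30 with the mean of a gene's probe sets, where Eed lay under the limit. That mean moved the member median level to 8.88 from 8.99. The count of detected targets was 0 at the 99th percentile and 6 at the median plus 1 log2 unit, against 1. The members highest on array 1 numbered 16 to 19, against 17, while the share of all genes highest there moved with the setting. It was 47.6% beside 19 members without array 2, 45.4% beside 18 without array 3 and 37.2% beside 19 under median centring, against 34.5%. No member passed the limma variance test (Benjamini-Hochberg) under any prior, filter, scaling or left-out array tried, and 0 to 3 were under 0.05 before adjustment. With a robust prior without a trend, or with control probe sets kept in, that number was 0, against 2. With 1 array left out it was 1 to 3. Other pathway genes above background numbered 23 or 24, against 23. Over all probe sets the calls numbered 3 with a prior that was not robust, 0 without a trend, with control probe sets kept in, with only probe sets above background, and with lowered degrees of freedom, and 0 to 18 with 1 array left out, against 6. The cause was not tested. No paired analysis was possible because the arrays form 1 group.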

Other observations

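The probe set assigned jointly to Cbx6, Npcd and Nptxr had 7.67, 7.84 and 7.74 on arrays 1, 2 and 3, above background on each, and it does not separate these genes. In RefSeq gene order, Cbx2 and Cbx8 are direct neighbours among protein-coding genes on chromosome 11, and Cbx6 and Cbx7 are parted by 1 gene on chromosome 15.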
